A study of Mus musculus with 4 samples.

Results

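5S ribosomal RNA (5S rRNA) is the smallest RNA of the large ribosomal subunit, and the mouse genome holds many copies of its gene. The copies described here are all the transcripts whose name starts with n-R5s in the table of noncoding transcripts. There were 68 of them among the 6311 rows of that table, and they were taken by name, whatever their level. The 2 tables of the series together hold 22781 rows, of which 16470 are in the mRNA table.

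Unlike the other cytosolic ribosomal RNAs, 5S rRNA is made by RNA polymerase III, which the factor TFIIIA (gene Gtf3a) brings to a promoter inside the gene. The 3′ end of the new RNA is bound by the La protein (gene Ssb). Ribosomal proteins Rpl5 and Rpl11 then form a small particle with it, which Rpf2 and Rrs1, studied mainly in yeast, help to place in the growing ribosome. In frog oocytes misfolded 5S rRNA is bound by the Ro protein (gene Trove2 in mouse). Dis3l2 is a cytoplasmic exoribonuclease that degrades RNA from the 3′ end and prefers tails of uridine, which the enzymes Zcchc6 and Zcchc11 add.

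The series asked which RNAs are bound by a mutant form of Dis3l2 in mouse embryonic stem cells (C57BL/6, passages 25 to 30, grown without feeders in LIF and serum). There were 4 libraries with 1 in each group. The mutant IP held RNA recovered on anti-FLAG gel from cells transfected with FLAG-tagged mutant Dis3l2, and the mock IP held RNA recovered on the same gel from mock-transfected cells. The mutant input and the mock input held RNA of the same kinds of cells without immunoprecipitation (IP), after RiboMinus selection, which removes ribosomal RNA. The labels do not name the mutation, do not say how long the protein was expressed or at what level, and do not describe the IP RNA as RiboMinus-selected. Without replicates, no difference below has a replicate check and no p-value is given.

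The deposited values were whole numbers of reads divided by a factor for each library, which was 2.7 for the mutant IP, 2.5 for the mock IP, 1.8 for the mutant input and 2.5 for the mock input. The sources used here do not say what the factors stand for. Reads were recovered by multiplying back. Ratios were taken on the deposited values. The noncoding table summed to 3183346 reads in the mutant IP, 2157604 in the mock IP, 2746737 in the mutant input and 2738512 in the mock input. All 10 embryonic stem cell markers examined were detected by both IPs, with summed counts of 3846 for the mutant and 2650 for the mock. In the inputs, which were shallow in the mRNA table, they summed to 140 and 179 reads for mutant and mock. In the mutant IP, mock IP, mutant input and mock input, markers of mesoderm summed to 0, 11, 0 and 4 reads, of endoderm to 20, 26, 2 and 0, of ectoderm to 63, 69, 16 and 16, and of fibroblasts to 152, 65, 22 and 12. The fibroblast sum was thus higher in both mutant libraries, with Col1a1 leading it at 73, 23, 16 and 4 reads, and its part in the results below was not tested.

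The 68 copies summed to 28227 reads in the mutant IP, 5579 reads in the mock IP, 1233 reads in the mutant input and 5829 reads in the mock input. As a share of the noncoding reads this was 0.887% of the mutant IP (exact binomial 95% interval 0.876 to 0.897%) and 0.259% of the mock IP (0.252 to 0.265%). In the inputs the share was 0.0449% for the mutant (0.0424 to 0.0475%) and 0.213% for the mock (0.207 to 0.218%). The mutant IP stood highest, the mutant input lowest, and the mock IP and mock input lay close together between them. Copies are nearly alike in sequence, so a read can match many of them. The sources used here do not say whether such a read was counted at each copy or divided, and a sum over copies may count it several times. The copies are therefore not independent observations, and an interval on their sum can be too narrow for this reason as well. The copy with the most reads over the 4 libraries, n-R5s103, reached 955 reads in the mutant IP, 177 in the mock IP, 43 in the mutant input and 192 in the mock input, and so gave the same order on its own.

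Of the 68 copies, 65 had at least 1 read in some library and 48 had reads in all 4 libraries. The remaining 3, n-R5s58, n-R5s183 and n-R5s204, had none. A count of 0 allows up to 3 reads, which is a deposited value of 1.11 in the mutant IP, 1.2 in the mock IP, 1.67 in the mutant input and 1.2 in the mock input. Reads were found for 63 copies in the mutant IP, 58 in the mock IP, 48 in the mutant input and 51 in the mock input. Between the IPs and the inputs, 14 copies had reads in an IP and in neither input, and 7 of these were found in no library but the mutant IP. All 14 had few reads, the most being 21 in the mutant IP for n-R5s151. The share of all noncoding features with such a pattern was not counted, so these counts are no result about the copies.

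The copies fell into levels with a wide gap, which was seen in the values and not set by the study. In the mutant IP 36 copies had 562 to 955 reads, and no copy lay between 139 and 562 reads. These 36 abundant copies held 96.2% of all 5S reads of the mutant IP. A further 12 intermediate copies had 52 to 139 mutant IP reads, 15 sparse copies had 1 to 26, and 5 had 0. The abundant copies had a median of 779 reads in the mutant IP and ranged from 99 to 177 reads (median 151) in the mock IP. They ranged from 20 to 60 reads (median 33.5) in the mutant input and from 102 to 203 (median 164) in the mock input. After n-R5s103, the copies with the highest means were n-R5s146, with 887, 163, 41 and 203 reads in the mutant IP, mock IP, mutant input and mock input, and n-R5s142, with 874, 172, 36 and 164. Since the bands were read off the mutant IP, its height over the other libraries in the abundant copies is part of that choice. Among the other libraries, the mutant input lay below both mock libraries in these copies, and the mock libraries overlapped each other.

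The copies were then sorted by the class that the RefSeq gene table of mouse assembly GRCm38.p6 gives to each. That table lists 55 of the 68 copies. Of these, 41 lie in the tandem array of 5S genes on chromosome 8, between Gas8 and Gm19600, and 14 lie elsewhere. The array has 51 genes and pseudogenes in all with no other gene listed among them, and 10 of its members carry names other than n-R5s. All 25 copies with a curated RefSeq transcript lie in the array and were abundant, with 736 to 955 reads in the mutant IP, 138 to 177 in the mock IP, 25 to 60 in the mutant input and 146 to 203 in the mock input. The 15 array copies that RefSeq only predicts were split. Of these, 7 were abundant, with 568 to 790 mutant IP reads (n-R5s106, n-R5s107, n-R5s112, n-R5s118, n-R5s120, n-R5s125 and n-R5s130), and 8 were intermediate, with 66 to 139. RefSeq classes 3 members of the array as pseudogenes, of which Rn5s-ps1 was not analysed here. The others differed widely in level. n-R5s127 had 25 reads in the mutant IP, 2 in the mock IP, 1 in the mutant input and 13 in the mock input. Gm23647, which has a name of another kind, had 831, 156, 25 and 177 reads in the same order, as many as the curated copies. The curated class was thus all abundant, while predicted copies and pseudogenes were found at high and low levels. These are reads counted at each copy. As copies may share reads, they need not give the expression of each gene.

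**Figure D1:**
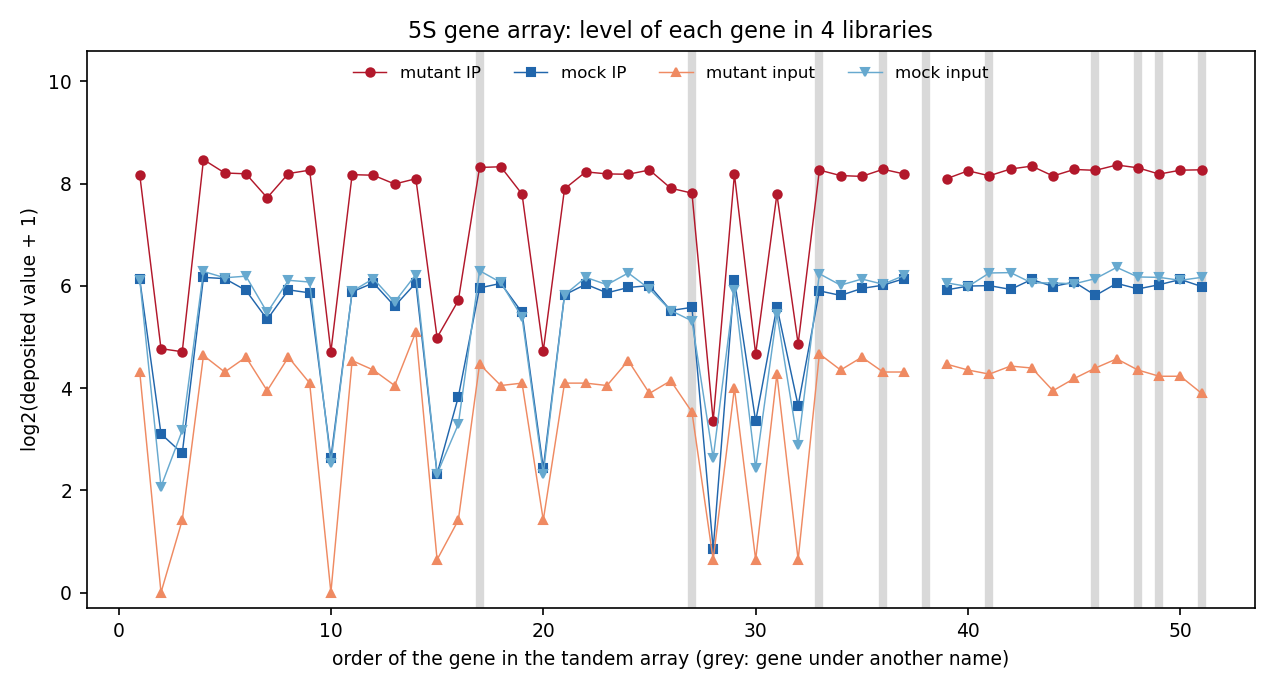
Level counted at each gene of the 5S array on chromosome 8, as log2(deposited value + 1), by its order in the array. There is 1 line for each library, and genes may share reads. Grey bands mark the 10 members with names other than n-R5s, of which 1 was not analysed here. The mutant IP line lies above the others, the mutant input line lies lowest at the abundant genes, and the same genes dip in all 4 libraries.

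Outside the array, 3 copies were abundant. Reads of array copies may also match them, so their counts do not show that these genes themselves were expressed. n-R5s2, on chromosome X, had 685 reads in the mutant IP, 116 in the mock IP, 26 in the mutant input and 134 in the mock input. n-R5s194, on chromosome 3, had 610, 140, 36 and 125 reads in the same order of libraries. n-R5s33, on chromosome 16, had 562, 119, 20 and 124. The other 11 copies outside the array had at most 26 mutant IP reads, and the 6 pseudogenes among them had at most 6. Of the 13 copies that the RefSeq table does not list, n-R5s185 was abundant with 603 mutant IP reads, and 4 were intermediate.

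Among the 25 curated copies the reads varied little. Their coefficient of variation across copies was 6.25% in the mutant IP, 7.12% in the mock IP, 21.1% in the mutant input and 8.30% in the mock input. Independent counting would give 3.52%, 7.92%, 16.9% and 7.66% in the same order. Copies that share reads do not vary independently, so these values do not show whether the copies differ in level. Across all 36 abundant copies the reads of the mutant IP and the mock IP had a Pearson correlation of 0.83 (Spearman 0.71). Within the 25 curated copies it was 0.38 (Spearman 0.30). These correlations describe copies that share libraries, sequence and possibly reads.

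The comparison of the mutant IP with the mock IP sets RNA recovered with the tagged protein against the background of the gel. With 1 library in each group, whether a difference comes from the tagged protein was not tested. The inputs of the same kinds of cells also differed in 5S level, as given below. The summed 5S level was 4.68 times as high in the mutant IP as in the mock IP (exact conditional binomial 95% interval 4.55 to 4.82, counting error only, as for every interval of a ratio below). For n-R5s103 alone the ratio was 4.996 (4.25 to 5.90). For single copies the log2 ratio used a pseudocount of 1, among copies with a value of at least 1 in a library the ratio used, and 58 copies met this. Of these, 42 were at least 4-fold higher in the mutant IP and 0 at least 4-fold lower, with a median log2 ratio of 2.18. Among the 42, the sparse copies n-R5s127, n-R5s151 and n-R5s200 passed the minimum only through the mutant IP, so they could only lie above 0. Over the whole noncoding table (3506 features), 13.5% passed 4-fold upward and 5.99% downward, with a median of 0.47. The count of copies rests on a threshold close to their common ratio, and it depended on how the libraries were scaled. With the libraries centred on their median it was 6, with equal totals 5, and with equal totals without the 18S rRNA gene Rn18s-rs5 it was 4 higher and 1 lower, while the summed ratio was 3.52, 3.43 and 3.13. Over all noncoding features 10%, 10.9% and 13.3% were then at least 4-fold higher, and 8.17%, 9.22% and 11.5% lower. With 58, 59 and 59 copies measured, the count of higher copies was thus near or below the share of all features.

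The abundant copies had similar ratios between the IPs. Their ratios, without a pseudocount, ran from 4.03 for n-R5s194 to 5.47 for n-R5s2, and the intervals of all 36 held the summed ratio of 4.68. These copies hold 96.2% of the 5S reads of the mutant IP and 95.5% of those of the mock IP, and may share reads. The summed ratio is thus mostly their own, and its place inside their intervals was close to given. The same holds for such counts of intervals in the other comparisons below. The intermediate copies together were 3.93 times as high in the mutant IP (3.40 to 4.57). Of these 12, 4 were at least 4-fold higher, against 13.5% of the noncoding table. The bands were cut on mutant IP reads, so these band ratios are descriptions.

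Among copies with at least 20 reads over both IPs, the highest and lowest ratios all fell to copies below the abundant level. n-R5s151, on chromosome 7, had 21 mutant IP reads and 0 mock IP reads, which is at least 6.48-fold higher against 3 reads. With 83 mutant IP reads and 10 mock IP reads, n-R5s114 had a ratio of 7.68 (3.98 to 16.6). The pseudogene n-R5s127 had a ratio of 11.6 on its 25 and 2 reads (2.89 to 101). At the low end, with 76 mutant IP reads and 29 mock IP reads, n-R5s131 had a ratio of 2.43 (1.56 to 3.86), and its interval lies below the summed ratio. n-R5s129 had 66 mutant IP reads and 23 mock IP reads, for a ratio of 2.66 (1.63 to 4.48). n-R5s56 had 52 mutant IP reads and 18 mock IP reads, for a ratio of 2.68 (1.54 to 4.86). Only n-R5s40 and n-R5s211 lay below 0 among the 58 copies, with 0 and 1 mutant IP reads and 5 mock IP reads each.

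**Figure D2:**
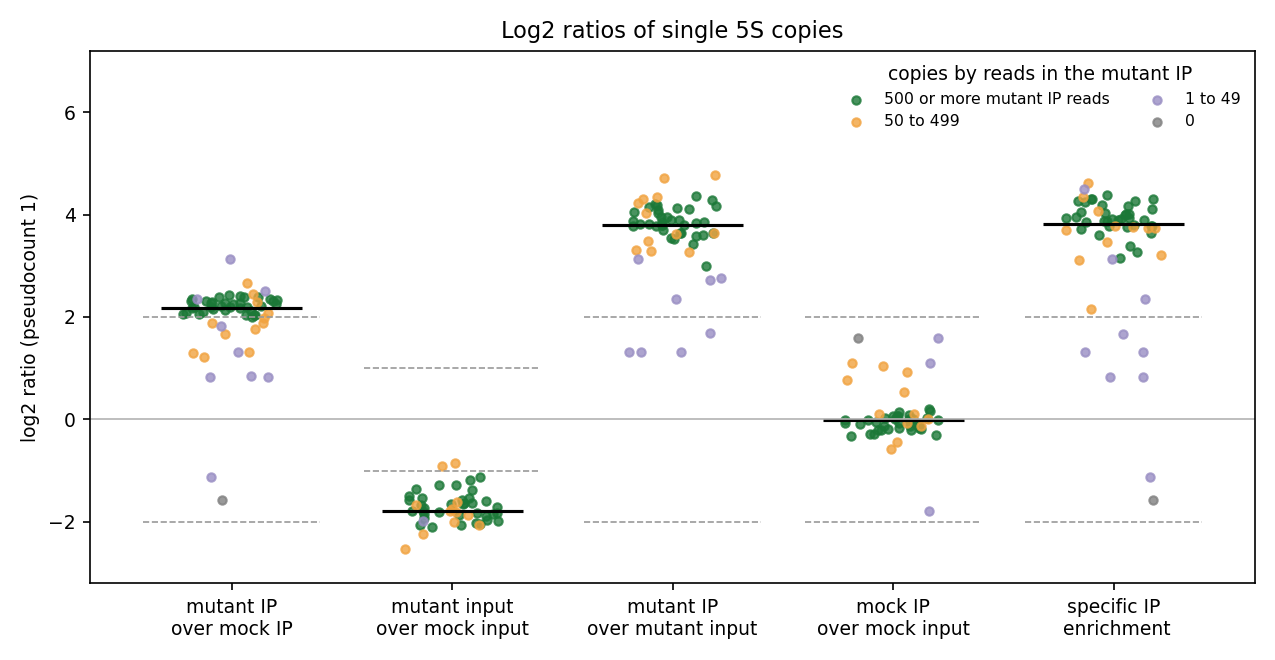
Log2 ratios of single 5S copies with a pseudocount of 1 for 5 comparisons, with copies coloured by their reads in the mutant IP, a black bar at the median and dashed lines at the threshold (4-fold, or 2-fold between the inputs). The 36 abundant copies form a tight group in each comparison, with medians over all measured copies of 2.18 for mutant IP over mock IP, -1.79 for mutant input over mock input and -0.02 for mock IP over mock input.

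The comparison of the inputs sets the 5S reads left after RiboMinus selection side by side for cells with mutant Dis3l2 and mock cells. It was made on RNA of whole cultures and gives no level per cell. The part of the selection, which removes ribosomal RNA, in this ratio was not tested. The summed 5S level of the mutant input was 0.294 of that of the mock input (0.276 to 0.312), which is 3.40-fold lower (3.20 to 3.62). All 49 measured copies lay below 0, and 47 of them were at least 2-fold lower, with a median log2 ratio of -1.79. Copies with a mutant input value below 1 passed the minimum only through the mock input, so they could only lie below 0. Examples are n-R5s101, with 0 and 8 reads in the mutant and mock inputs, and n-R5s109, with 0 and 12. All 36 abundant copies, with 20 to 60 mutant input reads, were among the 47. Over the whole noncoding table (2533 features), 13.6% were 2-fold or more lower and 29% were 2-fold or more higher, with a median of 0.48. The ratios of the abundant copies ran from 0.220 for n-R5s143 to 0.453 for n-R5s113, and 35 of 36 intervals held the summed ratio.

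n-R5s143 had 26 reads in the mutant input and 164 in the mock input (interval of the ratio 0.140 to 0.334). n-R5s121 had 29 reads in the mutant input and 177 in the mock input, a ratio of 0.228. n-R5s33 had 20 and 124 reads in the mutant and mock inputs, a ratio of 0.224. These were the lowest ratios, and the highest were still below 1. n-R5s113 had 60 reads in the mutant input and 184 in the mock input (0.333 to 0.609). n-R5s130 had 33 reads in the mutant input and 107 in the mock input, a ratio of 0.428 (0.281 to 0.638). n-R5s194 had a ratio of 0.400 (0.268 to 0.584).

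Among well-counted noncoding features the lower level in the mutant input was seen at 5S genes and at few others. Of 865 features with at least 100 reads over both inputs, 5.32% (46 features) were at least 2-fold lower in the mutant input. They were 36 n-R5s copies, 9 array genes with other names and Gm24089, which the RefSeq table does not list. Of the remaining 819 features, 0 were at least 2-fold lower and 93 at least 2-fold higher, so that these 93 made up all of the 10.8% of well-counted features that were higher. This is a count of fold changes with no test. The 36 copies passed the filter through the mock input, where they had 102 to 203 reads. Copies and array genes may also share reads, so the 46 features are not 46 observations. Without the filter, 13.6% of 2533 noncoding features were at least 2-fold lower. The next lowest were Gm15564, with a log2 ratio of -0.85, and the mitochondrial 12S rRNA mt-Rnr1, with -0.70. With the libraries centred on their median 47 features were at least 2-fold lower, the added one being Gm15564. With equal totals 51 were, and the 5 added were mt-Rnr1, Gm26772, Gm15564, Gm23346 and Gm44199.

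**Figure D3:**
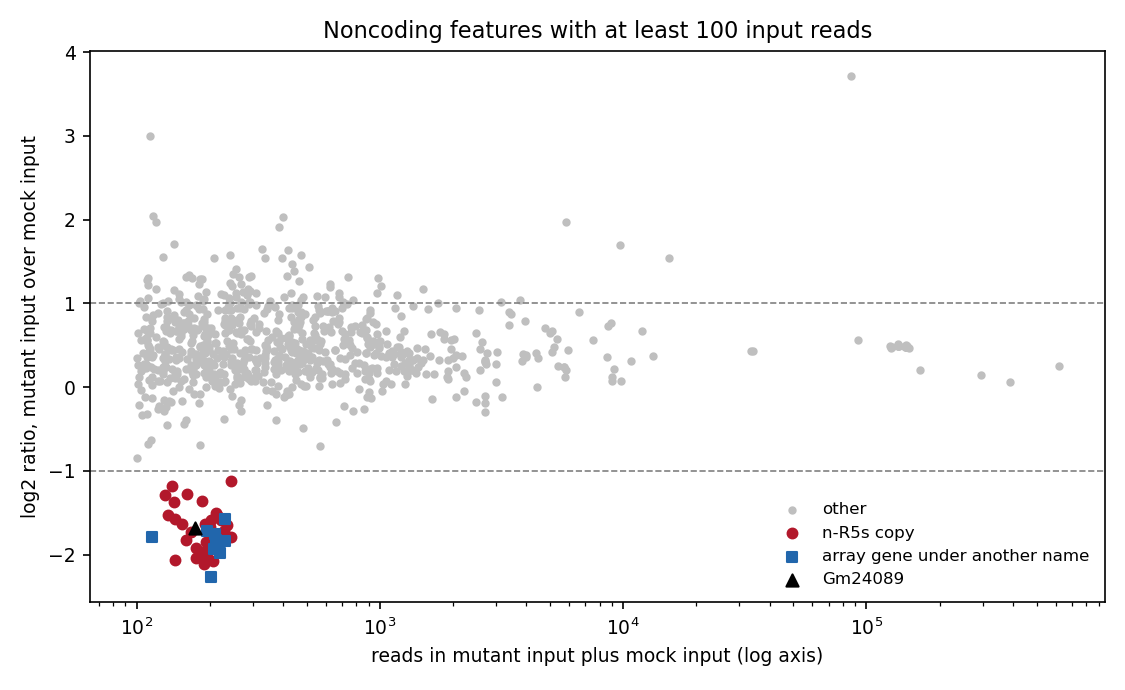
Log2 ratio of mutant input over mock input (pseudocount 1) against the reads of both inputs together on a log axis, for 865 noncoding features with at least 100 such reads. The 36 n-R5s copies, 9 array genes with other names and Gm24089 lie below the dashed line at 2-fold lower, and no other feature does.

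Other ribosomal RNAs did not share this ratio. The main 18S listing, Rn18s-rs5, had a ratio of 1.19 between the mutant and mock inputs, mt-Rnr2 had 0.922 (0.843 to 1.01) and mt-Rnr1 had 0.613 (0.510 to 0.735). Both inputs had passed RiboMinus selection in separate preparations, and the part of the selection in the 5S ratio was not tested.

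The ratio of IP to input compares RNA prepared in different ways, so its size and the effect of the selection cannot be told apart. In cells with mutant Dis3l2 the summed 5S level was 15.3 times as high in the IP as in the input (14.4 to 16.2). In mock cells it was 0.957 times as high (0.922 to 0.993). Of 56 measured copies in the mutant, 52 were at least 4-fold higher in the IP and 0 at least 4-fold lower, with a median log2 ratio of 3.80. Copies with a mutant input value below 1, such as n-R5s151 with 21 mutant IP reads and 0 mutant input reads, could only be higher. Over the whole noncoding table (3406 features), 25.7% passed 4-fold upward and 10.3% downward in that comparison, with a median of 0.90. Of 52 measured copies in the mock, 0 were at least 4-fold higher and 0 at least 4-fold lower, with a median of -0.02. Over the whole noncoding table (3138 features), 23.5% passed 4-fold upward and 10.7% downward, with a median of 0.79. These table medians depended on the read filter. Among features with at least 100 reads over both libraries they were -0.49 in the mutant (972 features) and -0.51 in the mock (903 features). In the mutant 137 of these features passed 4-fold upward, 38 n-R5s copies among them, and 192 downward. In the mock 63 passed upward and 210 downward, with no n-R5s copy among them.

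The abundant copies ran from 8.18 for n-R5s113 to 22.1 for n-R5s124 in the mutant, and 35 of 36 intervals held the summed ratio. n-R5s113 had 736 mutant IP reads and 60 mutant input reads, and n-R5s124 had 829 mutant IP reads and 25 mutant input reads. In the mock they ran from 0.794 for n-R5s141 to 1.15 for n-R5s128, and all 36 intervals held the summed ratio.

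The specific IP enrichment divides the IP-to-input ratio of the mutant by that of the mock. It was 15.9 for the summed copies (approximate 95% interval 14.9 to 17.1). Since it equals the ratio of the IPs divided by the ratio of the inputs, a 4.68-fold higher IP and a 3.40-fold lower input enter it together. Of 58 measured copies 51 were at least 4-fold higher and 0 at least 4-fold lower, with a median log2 value of 3.82. Over the whole noncoding table (3968 features), 13.3% passed 4-fold upward and 8.69% downward, with a median of 0.03. All 44 copies with at least 100 reads over the 4 libraries were at least 4-fold higher, under the deposited scale, median centring and both kinds of equal totals, against 11.1% of 1242 such features on the deposited scale. Some copies reached 100 reads mainly through the mutant IP, as n-R5s114 with 83 of 104 reads, so the filter favours this outcome. The 138 features behind the 11.1% include these 44 copies, 9 array genes with other names and Gm24089. Of the remaining 1188 features, 84 were at least 4-fold higher.

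The ratios did not separate the copies by place. Between the IPs the summed ratio was 4.71 for the 41 array copies (4.57 to 4.86), 4.57 for the 14 copies elsewhere (4.10 to 5.11) and 4.27 for the 13 that RefSeq does not list (3.67 to 4.99). Between the inputs it was 0.294, 0.299 and 0.282 for the same sets. These intervals overlap, and a difference of this size was not detectable at this depth. The 8 intermediate array copies had an IP ratio of 3.90 (3.26 to 4.68) and an input ratio of 0.153 (0.077 to 0.278), on 12 reads in the mutant input and 109 in the mock input.

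Of the 10 array members with other names, 9 are in the table and were left out of all counts of n-R5s copies. They had 605 to 858 reads in the mutant IP, 117 to 160 in the mock IP, 19 to 44 in the mutant input and 97 to 194 in the mock input. Their summed level was 4.97 times as high in the mutant IP as in the mock IP (4.69 to 5.27) and 0.268 times as high in the mutant input as in the mock input (0.236 to 0.304). Taken with the 68 copies, the sums gave 4.74 between the IPs and 0.288 between the inputs.

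The features whose profile over the 4 libraries was most like the summed copies were sought among 1198 others with at least 100 reads, by the Euclidean distance of 4 centred log2 values. The nearest were Rn5s at 0.061, Gm22291 at 0.130, Gm23284 at 0.131, Gm24089 at 0.198 and Gm22109 at 0.199. All but Gm24089 are array genes. Gm24089 had 849 reads in the mutant IP, 151 in the mock IP, 31 in the mutant input and 143 in the mock input.

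Other RNAs made by RNA polymerase III varied in profile. Rn7s1, a 7SL RNA of the signal recognition particle, had 45304 reads in the mutant IP, 890 in the mock IP, 16801 in the mutant input and 17358 in the mock input. Its ratio was 47.1 between the IPs (44.1 to 50.4) and 1.34 between the inputs (1.32 to 1.37). The mock IP was far below the mock input for this RNA, with a ratio of 0.0513, whereas the 5S copies were at 0.957.

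Rmrp, the RNA of RNase MRP, had a ratio of 19.5 between the IPs (17.4 to 21.8) and 1.19 between the inputs. Rpph1, the RNA of RNase P, had 7.43 between the IPs (6.75 to 8.19) and 1.29 between the inputs. Both were low in the mock IP relative to the mock input, with ratios of 0.111 and 0.106. Rn7sk, which holds the elongation factor P-TEFb inactive, had 1.39 between the IPs (1.27 to 1.52) and 1.57 between the inputs (1.22 to 2.02). Unlike those RNAs, it was higher in the mock IP than in the mock input, with a ratio of 6.18 (5.10 to 7.55). The vault RNA Vaultrc5, with 242 mutant IP reads, 10 mock IP reads, 11 mutant input reads and 6 mock input reads, had a ratio of 14.7 for mutant IP over mutant input (8.05 to 29.8), near the 15.3 of the 5S copies, and 1.67 for mock IP over mock input (0.549 to 5.58). Its ratio between the inputs was 2.55 (0.863 to 8.39). The 5S ratio between the IPs thus lay below those of Rn7s1, Rmrp and Rpph1 and above that of Rn7sk, with intervals that do not overlap. Beside these 5 RNAs, the 5S copies alone had an input ratio below 1. Over the 10 other RNA polymerase III transcripts listed, 8 of 9 measured were at least 4-fold higher in the mutant IP than in the mock IP, against 13.5% of the noncoding table. Rny1 and Rny3, with 57 and 19 mutant IP reads, had 0 reads in every other library, so they could only be higher. The 7SL RNAs Rn7s1, Rn7s2 and Rn7s6 had ratios of 47.1, 49.5 and 46.2 and may share reads. The 9 are thus not independent, and the count is a description. Between the inputs 0 of 7 were at least 2-fold lower and 1 at least 2-fold higher, against 13.6% lower and 29% higher in that table.

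**Figure D4:**
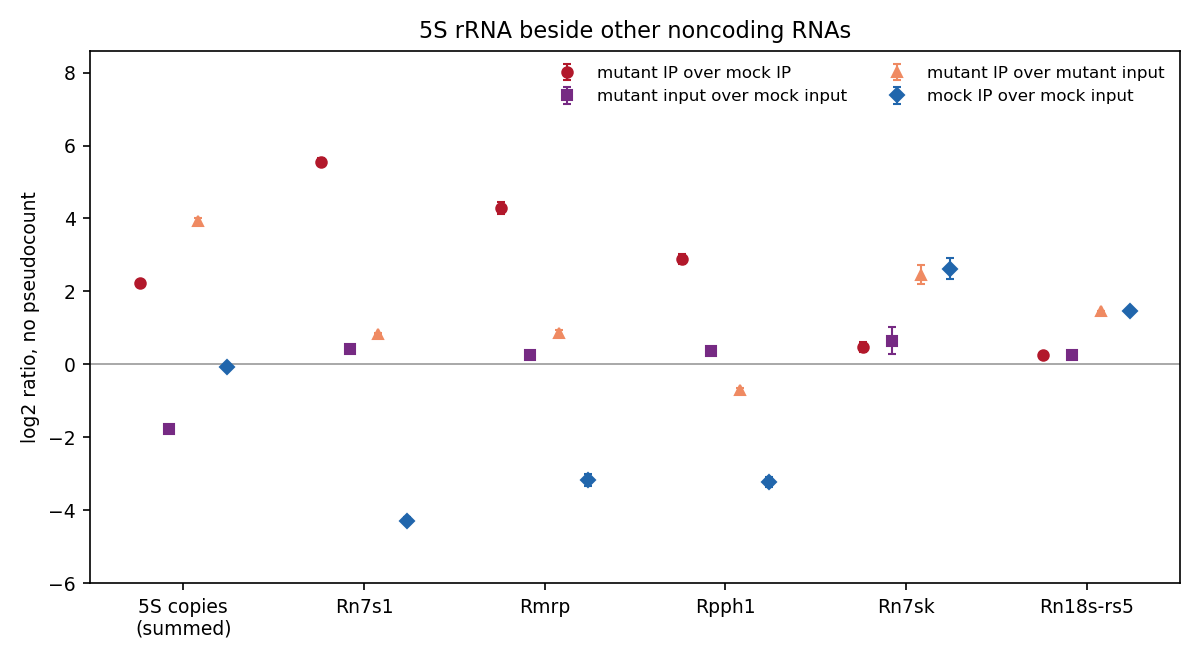
Log2 ratios without a pseudocount for the summed 5S copies and 5 other RNAs, with 4 ratios each and bars for the 95% interval of counting error (often smaller than the symbol). The 5S copies have the only mutant input over mock input ratio below 0 and a mock IP over mock input ratio near 0, where Rn7s1, Rmrp and Rpph1 lie well below 0.

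The genes that make 5S rRNA were read from the mRNA table. All 24 genes of RNA polymerase III and its factors were measured in the IPs. Of these, 1 was at least 4-fold higher in the mutant IP and 0 at least 4-fold lower, with a median log2 ratio of 0.49, against 10.1% and 5.74% of 14272 features of the mRNA table and a median of 0.38. The higher one was Polr1d, a subunit shared with RNA polymerase I, with 48 mutant IP reads and 4 mock IP reads. Gtf3a had 39 mutant IP reads and 13 mock IP reads, for a ratio of 2.78 (1.45 to 5.67). Between the inputs 3 of 18 measured genes were at least 2-fold higher and 7 at least 2-fold lower, against 37% and 21.7% of 9366 features. These counts were low, as for Bdp1, a subunit of TFIIIB, with 8 reads in the mutant input and 32 in the mock input (ratio 0.347, 0.138 to 0.769).

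Of 16 names of genes that bind, carry or trim 5S rRNA, 14 were listed and 13 measured in the IPs. None was past 4-fold in either direction, against 10.1% higher and 5.74% lower in the mRNA table. With 13 genes this count is no result about them. The median log2 ratio was 0.44, against 0.38 in that table. Between the inputs 3 of 13 measured genes were at least 2-fold higher and 1 at least 2-fold lower, against 37% and 21.7%. Rpl5 had 420 mutant IP reads and 325 mock IP reads, for a ratio of 1.20 (1.03 to 1.39). Rpl11 had 177 mutant IP reads and 120 mock IP reads, for a ratio of 1.37 (1.08 to 1.74). Trove2 had 71 mutant IP reads and 16 mock IP reads, for a ratio of 4.11 (2.36 to 7.57) that fell short of 4-fold with the pseudocount. Ssb went the other way, with 36 mutant IP reads and 65 mock IP reads (ratio 0.513, 0.331 to 0.782).

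Of 10 genes of uridylation and decay, 2 were at least 4-fold higher in the mutant IP than in the mock IP and 0 lower, with a median of 0.06, against 10.1% higher and 5.74% lower in the mRNA table and a median of 0.38. They were Dis3l2, with 127 mutant IP reads and 21 mock IP reads, and Zcchc11, with 146 mutant IP reads and 16 mock IP reads. Dis3l2 had 7 mutant input reads and 3 mock input reads, too few to check the labels by its level (ratio 3.24, 0.740 to 19.4).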

How the data were processed

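RNA was sequenced from 4 libraries, 1 each of mutant IP, mock IP, mutant input and mock input, grouped by their titles. Reads were aligned with Bowtie to mm9, per the submitters' processing notes. The version of Bowtie, the way reads were counted, the use of strand and the handling of reads with several alignments are items not given in those notes or elsewhere in the labels. The authors deposited 2 tables of signal, in which 100% of values were whole reads within 0.02 reads after multiplication by the library's factor. A depth- or length-normalised unit had been assumed, and the same ratios were kept. Values are not divided by transcript length, and levels were set side by side only among 5S genes, as reads per gene and not per length.

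Copies were taken by name. The copies and lists were chosen with earlier results of these data known. Log2 ratios used a pseudocount of 1 on the deposited values and features with at least 1 in any library used, which understates changes of low features. The transcript with the highest mean stood for a symbol in counts over all features. Thresholds were 4-fold, or 2-fold between inputs. Intervals (95%, exact conditional binomial on recovered reads; normal on the log scale for the specific enrichment) compare libraries, not conditions. Single copies were named by rule: the 10 highest means, the 3 highest and 3 lowest ratios between the IPs and between the inputs with at least 20 reads, and any copy at 0 in 1 IP with at least 20 reads in the other. Of the copies with the 10 highest means (n-R5s103, n-R5s146, n-R5s142, n-R5s117, n-R5s141, n-R5s149, n-R5s144, n-R5s104, n-R5s136 and n-R5s121), all are curated array copies. Copies at the ends of the ranges, the bands and the genes next in rank were named after their values were seen. RefSeq names, classes, chromosomes and neighbours came from assembly GRCm38.p6. Its gene coordinates were used to set which genes belong to the array, their order and the neighbours of the array. Alternatives were 2 pseudocounts, 2 minimum values and 3 scalings. Python 3.11.15, numpy 2.4.6, pandas 2.3.3 and scipy 1.17.1 were used, and the scripts were tested on simulated data.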

Additional observations from a re-analysis of the deposited data

Results flagged for a closer look

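The ratio of IP to input for the summed 5S copies had opposite signs in the mutant and mock conditions. It was 3.93 on the log2 scale in cells with mutant Dis3l2 and -0.06 in mock cells, so the single library pair of each condition moved in opposite directions. With 1 library pair per condition the difference was not tested. RiboMinus selection is given in the labels of the inputs alone. Under all 3 scalings tried the mutant ratio stayed above the mock ratio, while the sign of the mock ratio depended on the scaling.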

How the results depend on the processing

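No paired analysis was possible because each group has 1 library. Median centring of the libraries gave summed ratios of 3.52 (mutant IP over mock IP), 0.249 (mutant input over mock input), 14.2 (mutant IP over mutant input), 1.01 (mock IP over mock input) and 14.1 (specific enrichment). Equal totals gave 3.43, 0.211, 19.8 and 1.21 for the first 4, and equal totals without Rn18s-rs5 gave 3.13, 0.207, 28.1 and 1.86. The median log2 ratio between the IPs was 1.77, 1.73 and 1.61 under median centring, equal totals and equal totals without Rn18s-rs5. For mutant IP over mutant input it was 4.64 without Rn18s-rs5, and for mock IP over mock input it was 0.32 with equal totals and 0.90 without Rn18s-rs5. The copies past 4-fold between the IPs numbered 6, 5 and 5 under the same 3 scalings. Between the IPs 10%, 10.9% and 13.3% of all noncoding features then passed 4-fold upward, and 8.17%, 9.22% and 11.5% downward. In mock IP over mock input 3 copies were past 4-fold with a pseudocount of 0.5, where the share of all features was not counted. Without Rn18s-rs5 there were 2 of 54, against 39.1% of all noncoding features higher and 7.77% lower. The highest copy alone, chosen after seeing the data, gave 4.996 between the IPs and 0.922 for mock IP over mock input. By these scalings the median of all noncoding features moved by up to 0.58 on the log2 scale between the IPs. Of the planned repeats 81 stayed within the margin set for each value and 24 moved, and of those added after seeing the data 18 stayed and 2 moved. The direction of the summed ratio between the IPs and between the inputs was the same in each repeat run. Depth limits the sparse copies and the mutant input, where the abundant copies had 20 to 60 reads.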
